A study of Mus musculus with 3 samples.

Results

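The genes described here are 8 genes of the skin's outer layer that were measured in mouse embryonic stem cells: the late cornified envelope genes Lce1c, Lce1d, Lce1f, Lce1g and Lce1h, together with Scel, Krtdap and Krtap11-1. They were chosen by name, with their differences between these arrays known, from 20274 genes that could be named on the array, and they were read by 10 of 55681 probes. Their differences between the arrays are therefore a description and were not tested. RNA came from 3 male cultures, with 1 array each: Pcgf6-edited cells that received Flag-tagged Pcgf6 by lentivirus (labelled Pcgf6KO+ Pcgf6_flag), cells edited at Pcgf6 with Cas9 (labelled Pcgf6KO), and wildtype cells. All 3 were grown with leukemia inhibitory factor on embryonic fibroblasts inactivated with mitomycin-C, so RNA of these feeder cells can be present, and the labels do not say whether each edited line is 1 clone. Pcgf6 is the defining subunit of a variant Polycomb repressive complex, and the labels state no purpose beyond comparing the 3 genotypes.

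The cornified envelope is a protein shell that replaces the plasma membrane of keratinocytes as they die and form the surface of the skin. Transglutaminases cross-link its precursors, among them involucrin, loricrin, small proline-rich proteins and the late cornified envelope proteins, most of which are encoded in 1 gene cluster called the epidermal differentiation complex. Sciellin, the product of Scel, is another envelope precursor, Krtdap encodes a secreted protein of differentiating keratinocytes, and Krtap11-1 encodes a keratin-associated protein of the hair shaft. None of these genes is a usual marker of embryonic stem cells.

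The Lce1 genes lie together on mouse chromosome 3, whereas Scel lies on chromosome 14, Krtdap on chromosome 7 and Krtap11-1 on chromosome 16. The 120 bases before the transcription start are shown for the 7 members with an entry in the RefSeq promoter table of GRCm38.p6, because the Lce1 genes all had their highest signal in wildtype, whereas Scel, Krtdap and Krtap11-1 did not. Lce1f is named only. Each sequence runs 5′ to 3′ towards the start, and capitals mark matches to the TATA box letters TATAAA, to the AP-1 motif searched as TGANTCA, and to a string shared by the Lce1 genes, ATAAAAGG, with overlapping matches joined.
Lce1c, chr3:92679127-92679246, plus strand: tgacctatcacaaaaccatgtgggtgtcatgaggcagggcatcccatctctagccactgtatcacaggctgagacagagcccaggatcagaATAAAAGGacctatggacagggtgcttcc
Lce1d, chr3:92687211-92687330, minus strand: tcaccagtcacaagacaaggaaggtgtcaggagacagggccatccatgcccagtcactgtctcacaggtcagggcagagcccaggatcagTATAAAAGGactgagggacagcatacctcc
Lce1g, chr3:92752339-92752458, minus strand: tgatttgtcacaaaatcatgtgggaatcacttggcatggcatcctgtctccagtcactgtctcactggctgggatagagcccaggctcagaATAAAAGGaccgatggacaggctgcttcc
Lce1h, chr3:92765066-92765185, minus strand: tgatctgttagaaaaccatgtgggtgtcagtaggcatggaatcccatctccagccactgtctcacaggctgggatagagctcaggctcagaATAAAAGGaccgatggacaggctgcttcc
Scel, chr14:103513221-103513340, plus strand: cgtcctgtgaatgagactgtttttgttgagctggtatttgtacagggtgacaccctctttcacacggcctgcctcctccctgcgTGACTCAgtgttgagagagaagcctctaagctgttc
Krtdap, chr7:30787785-30787904, plus strand: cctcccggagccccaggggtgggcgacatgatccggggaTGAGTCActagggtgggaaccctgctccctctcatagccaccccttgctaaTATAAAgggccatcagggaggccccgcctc
Krtap11-1, chr16:89571184-89571303, minus strand: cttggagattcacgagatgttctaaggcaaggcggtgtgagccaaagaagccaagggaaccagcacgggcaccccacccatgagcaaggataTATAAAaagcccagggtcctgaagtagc

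The 4 Lce1 sequences shared ATAAAAGG, which began 29 bases before the start in each of them. That string was chosen after the sequences had been read. On both strands of the 300-base windows, which run from 250 bases before to 50 bases after the start, ATAAAAGG was in 10 of 13 Lce1 windows and in 1.76% of all 32851 windows. TATAAA was in 3 of the 7 members (Lce1d, Krtdap and Krtap11-1), against 13.6% of all windows, and in Lce1d it overlapped ATAAAAGG. TGANTCA was in Scel and Krtdap, against 7.81% of all windows. CACGTG, the E-box of the kind bound by Max and Mga, and TTCCCGC, an E2F motif, were in 0 of the 7 windows and in 7.15% and 4.6% of all windows. A match is a run of letters and not a binding site. Over the 300-base windows, the 6 pairs of Lce1 members had 63.9% to 84.6% identical bases, and the 15 pairs with at least 1 other member 49.3% to 53.7%.

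Pcgf6 itself had a processed signal of 6202 units on the array labelled Pcgf6KO+ Pcgf6_flag, 7704 in Pcgf6KO and 14333 in wildtype. The Pcgf6KO signal was thus below that of wildtype, and the array labelled as carrying the introduced Pcgf6 had the lowest of the 3. The labels do not place its only probe relative to the edited or the introduced sequence, so the third array is called by its label. Levels below are log2 of the processed signal minus the 75th percentile of the array, and differences between arrays are in log2 units of that level. With 1 array per group there is no replicate check and no p-value, and a fixed difference of 2-fold was used to call a gene higher or lower. On the Pcgf6KO+ Pcgf6_flag, Pcgf6KO and wildtype arrays 60.7%, 66.0% and 65.3% of probes were well above background, and the lowest such signals were 103, 53.4 and 52.7 units. Repeated spots within an array had a median SD of 0.05 to 0.08 above 300 units and of 0.13 to 0.15 below, which leaves out differences between cultures. The Pcgf6KO+ Pcgf6_flag array lay alone on its slide, so slide and group cannot be told apart in its comparisons. Of the 10 stem cell markers examined, 10 were well above background on each array and 0 differed by 2-fold in any comparison.

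Wildtype had the highest signal of all 5 Lce1 members. Each was well above background in wildtype, but only Lce1c and Lce1h were so on either of the other arrays. Lce1h had 498 units on the Pcgf6KO+ Pcgf6_flag array, 370 in Pcgf6KO and 5736 in wildtype. The Pcgf6KO level was thus 16.9-fold below wildtype, a difference of -4.08, and the Pcgf6KO+ Pcgf6_flag level was 13.7-fold below it, a difference of -3.78. Lce1c had 2129 units on the Pcgf6KO+ Pcgf6_flag array, 1461 in Pcgf6KO and 9641 in wildtype, so that it differed from wildtype by -2.44 and -2.85. For both genes the Pcgf6KO+ Pcgf6_flag and Pcgf6KO arrays lay close to each other, with differences of 0.30 for Lce1h and 0.41 for Lce1c between them, and both stood well below wildtype. The scanner software's own error of these signals was at most 10.95%.

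Lce1g had 25.0 units on the Pcgf6KO+ Pcgf6_flag array, 28.7 in Pcgf6KO and 3867 in wildtype. The first 2 of these signals were not well above background, so Lce1g was at least 44.8-fold lower on the Pcgf6KO+ Pcgf6_flag array than in wildtype and at least 79.0-fold lower in Pcgf6KO. These bounds, here and below, set the brighter array against the higher of the dimmer array's own signal and its lowest signal well above background. Lce1f had 26.8 units on the Pcgf6KO+ Pcgf6_flag array, 13.5 in Pcgf6KO and 492 in wildtype, which made it at least 5.71-fold lower on the Pcgf6KO+ Pcgf6_flag array and at least 10.1-fold lower in Pcgf6KO. Lce1d was dim, with 26.1, 31.5 and 70.6 units on the same arrays in the same order, and was well above background in wildtype only. Its bound in Pcgf6KO was 1.44-fold, and none could be given for the Pcgf6KO+ Pcgf6_flag array, whose lowest signal well above background exceeded the wildtype signal of Lce1d on the scaled values. The scanner software's error of the wildtype signal was 20.3% for Lce1d. Lce1d, Lce1f and Lce1g could not be ordered between it and Pcgf6KO.

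**Figure D1:**
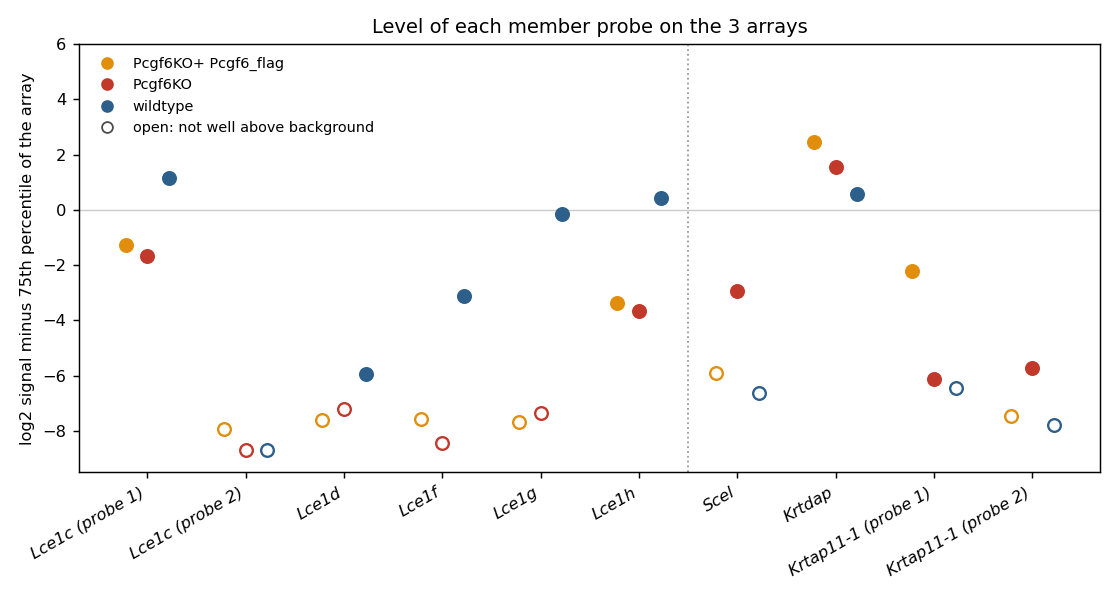
Level of each of the 10 member probes (log2 signal minus the 75th percentile of the array, vertical axis) on the Pcgf6KO+ Pcgf6_flag, Pcgf6KO and wildtype arrays, 1 point per array, with open points for signals not well above background. Wildtype is the highest point for the 5 Lce1 genes apart from the second Lce1c probe, which is open on all arrays, and Pcgf6KO+ Pcgf6_flag is the highest point for Krtdap and for the first Krtap11-1 probe.

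In Pcgf6KO against wildtype, 4 of the 8 members were at least 2-fold lower, all of them Lce1 genes, and 1 was at least 2-fold higher, with bounds counted. Over all named genes well above background on at least 1 of those 2 arrays, 3.48% were lower and 6.73% higher by the same rule. For the Pcgf6KO+ Pcgf6_flag array against wildtype, 4 members were lower and 2 higher, where 6.47% and 5.63% of all genes were. For that array against Pcgf6KO, 1 member was lower and 1 higher, where 10.3% and 5.88% were. Because the members were picked for these values, nothing is read from the counts.

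Scel was the member with the highest signal in Pcgf6KO alone. It had 84.7 units on the Pcgf6KO+ Pcgf6_flag array, 603 in Pcgf6KO and 43.8 in wildtype, and only the Pcgf6KO signal was well above background. It was at least 10.5-fold higher in Pcgf6KO than in wildtype, and at least 6.42-fold lower on the Pcgf6KO+ Pcgf6_flag array than in Pcgf6KO. Whether the Pcgf6KO+ Pcgf6_flag array differed from wildtype could not be read, since both signals were not well above background. Its RefSeq neighbours were expressed on all 3 arrays with smaller differences. Slain1, a microtubule-associated protein gene, had 2100 units on the Pcgf6KO+ Pcgf6_flag array, 3587 in Pcgf6KO and 1777 in wildtype, and thus also its highest signal in Pcgf6KO, with 0.89 against wildtype. Mycbp2, a ubiquitin ligase gene, differed by 0.39 between Pcgf6KO and wildtype and by -0.69 between the Pcgf6KO+ Pcgf6_flag array and Pcgf6KO.

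Krtdap was well above background on every array, with 28174 units on the Pcgf6KO+ Pcgf6_flag array, 13622 in Pcgf6KO and 6388 in wildtype. It differed by 0.97 between Pcgf6KO and wildtype, just inside 2-fold, and by 0.92 between the Pcgf6KO+ Pcgf6_flag array and Pcgf6KO. The difference between the Pcgf6KO+ Pcgf6_flag array and wildtype was 1.88, or 3.69-fold. The level was thus highest on the Pcgf6KO+ Pcgf6_flag array, and it was not closer to wildtype on the Pcgf6KO+ Pcgf6_flag array than in Pcgf6KO. Dmkn, which encodes dermokine and is the neighbour of Krtdap in RefSeq order, had 8184 units on the Pcgf6KO+ Pcgf6_flag array, 4096 in Pcgf6KO and 2303 in wildtype. Its differences of 0.87 for the Pcgf6KO+ Pcgf6_flag array against Pcgf6KO and 0.71 for Pcgf6KO against wildtype were of similar size to those of Krtdap. Sbsn, the suprabasin gene of the same stretch of chromosome 7, gave 0.18 and 0.48 in these comparisons. Ffar2, a fatty acid receptor gene on the other side of Krtdap, gave -0.79 and 1.12.

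Krtap11-1 was read by 2 probes that disagreed. The first had 1094 units on the Pcgf6KO+ Pcgf6_flag array, 66.8 in Pcgf6KO and 48.8 in wildtype, the last not well above background. By that probe Krtap11-1 was 14.9-fold higher on the Pcgf6KO+ Pcgf6_flag array than in Pcgf6KO, and at least 17.4-fold higher than in wildtype. The second probe had 29.2 units on the Pcgf6KO+ Pcgf6_flag array, 88.6 in Pcgf6KO and 19.2 in wildtype, and was well above background in Pcgf6KO only. With the mean of both probes the difference from Pcgf6KO was 1.08 in place of 3.90, so the size of the Krtap11-1 difference rests on 1 probe and 1 array. Of its RefSeq neighbours, Krtap7-1 was not well above background on any array, and Tiam1 differed by -0.04 between the Pcgf6KO+ Pcgf6_flag array and Pcgf6KO. Lce1c also had a second probe, which was not well above background on any array, with 10.5 to 21.1 units.

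**Figure D2:**
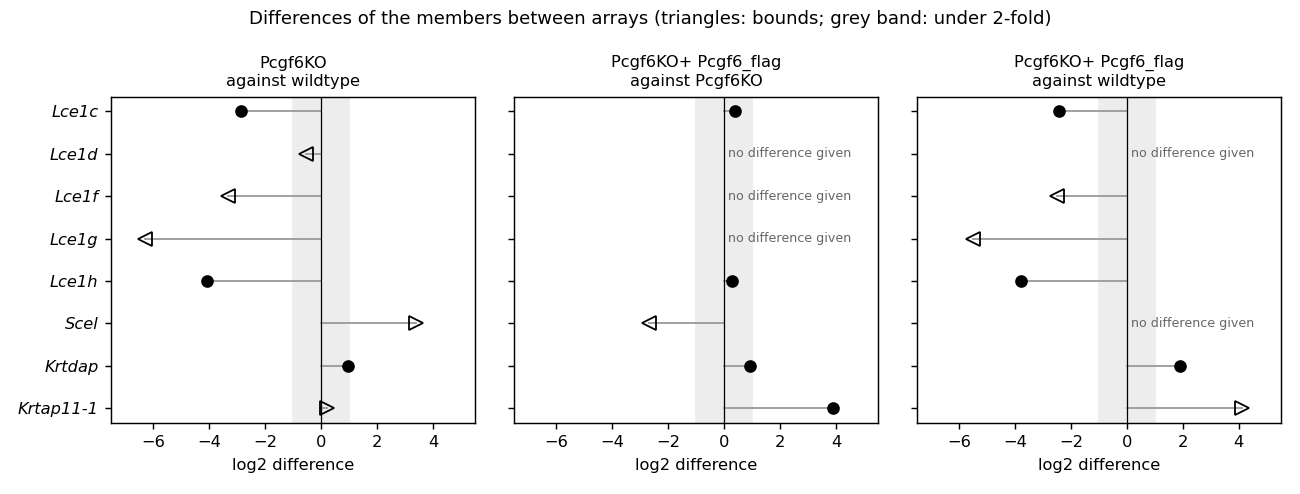
Log2 differences of the 8 members (horizontal axis, 1 row per gene) for Pcgf6KO against wildtype, Pcgf6KO+ Pcgf6_flag against Pcgf6KO and Pcgf6KO+ Pcgf6_flag against wildtype, with circles where both arrays were well above background, triangles for bounds, and a grey band for less than 2-fold. In Pcgf6KO against wildtype the 5 Lce1 genes lie to the left of 0 and Scel, Krtdap and Krtap11-1 to the right, and Lce1d and Scel have no value for Pcgf6KO+ Pcgf6_flag against wildtype.

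The Lce1 genes and the other members thus stood on opposite sides of wildtype wherever a difference or bound could be given, although Scel, Krtdap and Krtap11-1 differed among themselves. In Pcgf6KO against wildtype the median difference was -3.33 for the 5 Lce1 members (range -6.30 to -0.53) and 0.97 for Scel, Krtdap and Krtap11-1 (range 0.22 to 3.39), with bounds at their value, so the medians were 4.30 apart. For the Pcgf6KO+ Pcgf6_flag array against wildtype the medians were -3.15 over 4 Lce1 members and 3.0 over Krtdap and Krtap11-1. Against Pcgf6KO they were 0.35 over Lce1c and Lce1h and 0.92 over the 3 other members, whose own differences ran from -2.68 for Scel to 3.90 for Krtap11-1. All genes well above background on both arrays had medians of -0.02, -0.04 and 0.00 in these comparisons. The 3 comparisons share arrays, so they are not independent of each other.

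The same direction was seen in Lce1 genes that were not members. Of the 7 Lce1 genes on the array that were not members, 4 were well above background in wildtype and had their highest signal there. All 4 were at least 2-fold lower than wildtype in Pcgf6KO and on the Pcgf6KO+ Pcgf6_flag array. The other 3 (Lce1a1, Lce1b and Lce1m) were not well above background on any array. With the members, which were picked for their values, 9 of 12 were well above background in wildtype and highest there. Lce1i, next to Lce1h, had 257 units on the Pcgf6KO+ Pcgf6_flag array, 212 in Pcgf6KO and 3917 in wildtype. Its differences from wildtype were -4.18 on the Pcgf6KO+ Pcgf6_flag array and -4.33 in Pcgf6KO. Its second probe, with 61.0, 126 and 4526 units on the arrays in that order, gave the same direction. Lce1a2, next to Lce1c, had 2824 units on the Pcgf6KO+ Pcgf6_flag array, 1614 in Pcgf6KO and 6930 in wildtype, but its dimmer probe had 407, 164 and 215 units and was highest on the Pcgf6KO+ Pcgf6_flag array. Lce1e and Lce1l were well above background in wildtype only, with 234 and 439 units there, and in Pcgf6KO their bounds were 4.78-fold lower for Lce1e and 8.96-fold lower for Lce1l. Of the 8 genes that follow each other in RefSeq order from Lce1a2 to Lce1i, 7 were at least 2-fold lower in Pcgf6KO than in wildtype. On the Pcgf6KO+ Pcgf6_flag array 7 were at least 2-fold lower than in wildtype. This run was chosen after the values were seen and includes the Lce1 members, so nothing is read from its counts. Of all genes, 3.48% and 6.47% were lower in these comparisons. The Lce1 genes are close paralogs, and without probe sequences it could not be checked whether a probe reads more than 1 of them.

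The rest of the complex did not share 1 direction. Of 11 other Lce genes on the array, of which 6 were well above background on at least 1 array, 4 were at least 2-fold lower and 0 higher in Pcgf6KO than in wildtype. These 4 are the Lce1 genes of the preceding paragraph. By the same rule 3.48% of all genes were lower and 6.73% higher. Lce3b was well above background in Pcgf6KO only and Lce3f in wildtype only, both with bounds under 2-fold. Of 24 other genes of the complex, 15 were not well above background on any array. Among the remaining 9, 2 were higher in Pcgf6KO than in wildtype and 3 were lower. The median was 0.14, or -0.07 both with no filter on dim probes and with bright genes only, which leaves Sprr2a2 and Tchh. Sprr2a2, the brightest gene of this list, differed by -0.32 by the probe used. Another of its 3 probes had 114, 1272 and 234 units on the Pcgf6KO+ Pcgf6_flag, Pcgf6KO and wildtype arrays, 4.99-fold higher in Pcgf6KO than in wildtype. Lor, the loricrin gene, had 1556 units on the Pcgf6KO+ Pcgf6_flag array, 4082 in Pcgf6KO and 1852 in wildtype, with differences of 1.02 for Pcgf6KO against wildtype and -1.52 for the Pcgf6KO+ Pcgf6_flag array against Pcgf6KO. Sprr1a, a small proline-rich precursor, was higher by 1.06 in Pcgf6KO than in wildtype. Ivl, the involucrin gene, had 89.3, 66.2 and 415 units on the Pcgf6KO+ Pcgf6_flag, Pcgf6KO and wildtype arrays, and was at least 6.83-fold lower in Pcgf6KO than in wildtype. Crct1 differed by -1.43 and Sprr2k was at least 8.56-fold lower in the same comparison. In Pcgf6KO against wildtype Ivl, Sprr2k and Crct1 thus had the direction of the Lce1 genes, and Lor and Sprr1a the opposite one. Crct1 was lower again on the Pcgf6KO+ Pcgf6_flag array than in Pcgf6KO, by -1.41, where Lce1c and Lce1h differed by 0.41 and 0.30.

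**Figure D3:**
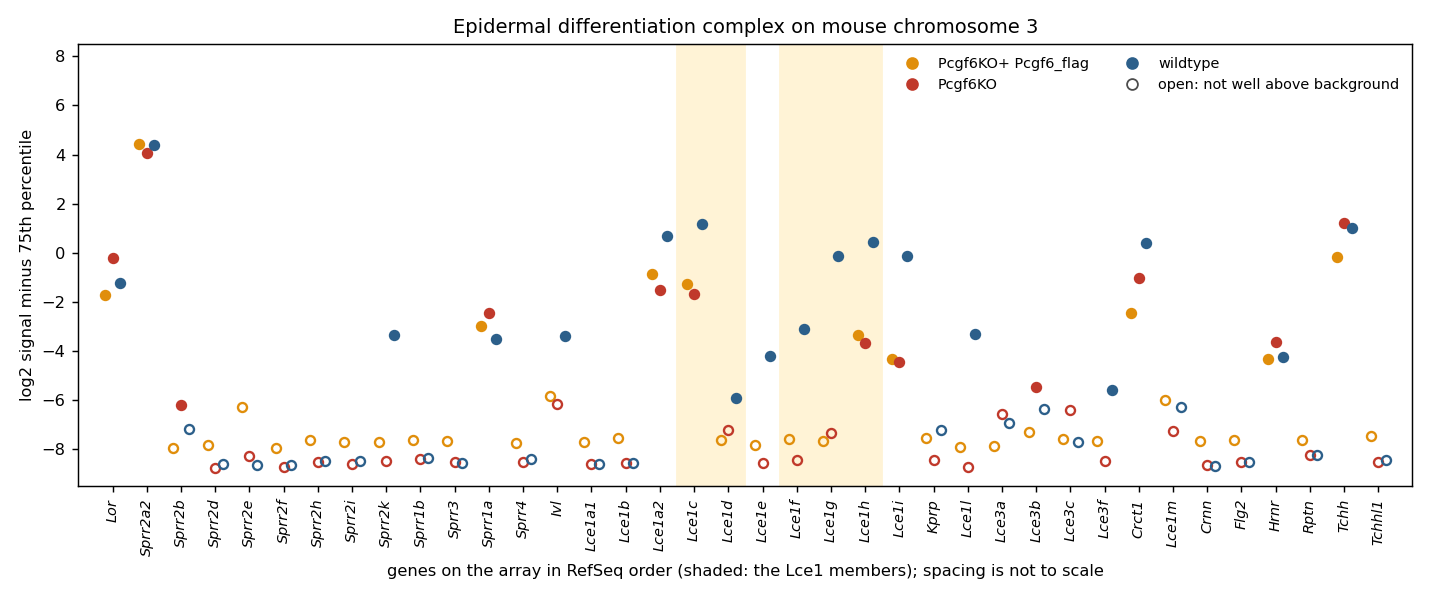
Level (log2 signal minus the 75th percentile of the array) of the epidermal differentiation complex genes on the array, in RefSeq order from left to right and not to scale, on the Pcgf6KO+ Pcgf6_flag, Pcgf6KO and wildtype arrays, with open points where a signal was not well above background and the Lce1 members shaded. From Lce1a2 to Lce1i the wildtype point is the highest for each gene, while most Sprr genes are open on all arrays.

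Genes that build or cross-link the envelope elsewhere in the genome differed less. Of 13 on the array, 10 were well above background on at least 1 array. In Pcgf6KO against wildtype 1 was at least 2-fold higher and 0 lower, with a median of 0.19, where 6.73% and 3.48% of all genes were. The higher gene was Dsp, the desmoplakin gene, with 4845 units on the Pcgf6KO+ Pcgf6_flag array, 7312 in Pcgf6KO and 2356 in wildtype. Tgm1, the main transglutaminase of the keratinocyte envelope, had 16582, 23021 and 21026 units on the same arrays and differed by 0.01 between Pcgf6KO and wildtype. Tgm3, another transglutaminase, was higher by 1.22 on the Pcgf6KO+ Pcgf6_flag array than in Pcgf6KO, and Cdsn, the corneodesmosin gene, by 1.03.

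Of 14 epidermal keratins, 3 were at least 2-fold higher in Pcgf6KO than in wildtype and 0 lower: Krt16 with a difference of 1.29, Krt1 with 1.18 and Krt79 with 1.004. Among all genes 6.73% were higher and 3.48% lower in that comparison. The list median was 0.62 over the 9 keratins well above background on both arrays, and 0.34 after normexp background correction. With bright genes only, which leaves Krt10 with 0.27 and Krt17 with -0.26, it was 0.0023. On the Pcgf6KO+ Pcgf6_flag array Krt1 was lower than in Pcgf6KO, by -1.57, whereas Krt16 differed by 0.07. Krt14, a basal keratin, had 2163 units on the Pcgf6KO+ Pcgf6_flag array, 3620 in Pcgf6KO and 1961 in wildtype, with differences under 2-fold. Among 14 transcription regulators of keratinocytes, Hopx alone was at least 2-fold higher in Pcgf6KO than in wildtype, by 1.11, and 0 were lower. These counts are near the shares of all genes. On the Pcgf6KO+ Pcgf6_flag array against Pcgf6KO 2 of the 14 were at least 2-fold lower and 1 higher, where 10.3% and 5.88% of all genes were. Hopx was 1 of the lower genes, with -2.41. Trp63, which encodes the p63 factor of basal keratinocytes, had 148256, 108328 and 120989 units on the Pcgf6KO+ Pcgf6_flag, Pcgf6KO and wildtype arrays by 1 probe, but 21.8, 11.6 and 10.9 units by the other, which was not well above background.

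The other keratin-associated protein genes, 49 on the array, were compared with Krtap11-1. On the Pcgf6KO+ Pcgf6_flag array against Pcgf6KO, 7 of the 21 with a difference or bound were at least 2-fold higher and 0 lower, with a median of 0.52. Over all genes 5.88% were higher and 10.3% lower by the same rule. Krtap5-1 had 3818 units on the Pcgf6KO+ Pcgf6_flag array, 600 in Pcgf6KO and 370 in wildtype, with a difference of 2.54 from Pcgf6KO, although its other probe had 481, 319 and 306 units. Krtap1-4 was higher by 2.38, Krtap8-1 by 1.60 and Krtap10-10 by 1.31. In Pcgf6KO against wildtype 0 of 22 were higher and 0 lower, with a median of 0.00, where 6.73% and 3.48% of all genes were. The higher genes thus stood out on the array that lay alone on its slide. Its negative controls also had the widest spread after background subtraction, with an SD of 16.9 units against 9.09 in Pcgf6KO and 8.80 in wildtype. The part of slide and of this spread in the Krtap differences was not tested.

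**Figure D4:**
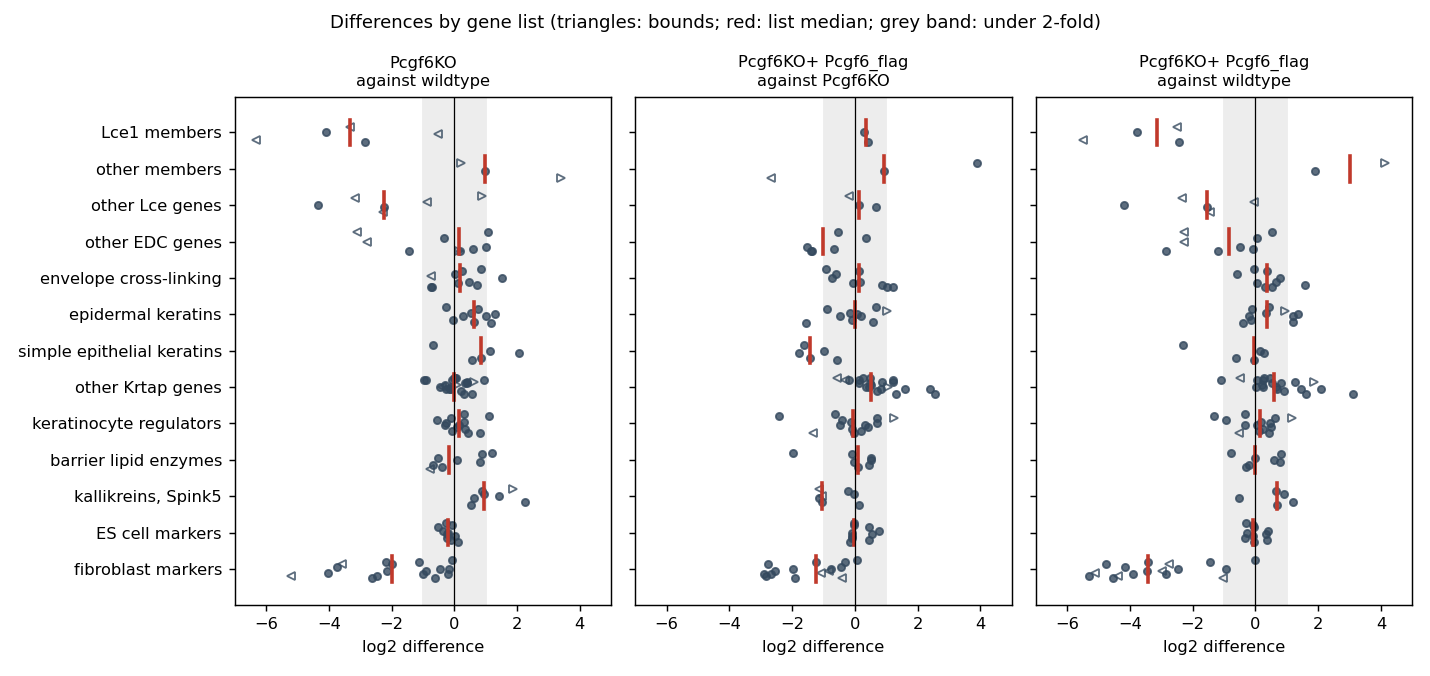
Log2 differences (horizontal axis) of the genes of each list (1 row per list, 1 point per gene) in the 3 comparisons, with triangles for bounds, red bars for the list medians and a grey band for less than 2-fold. In Pcgf6KO against wildtype the Lce1 members and the fibroblast markers lie to the left, with medians of -3.33 and -1.99, and the stem cell markers near 0, with -0.21.

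Markers of other cells were read beside the Lce1 genes. Of 18 fibroblast markers, 12 were well above background on the Pcgf6KO+ Pcgf6_flag array, 15 in Pcgf6KO and 17 in wildtype. Their summed signal, in units of each array's 75th percentile, was 21.1 on the Pcgf6KO+ Pcgf6_flag array, 33.8 in Pcgf6KO and 65.1 in wildtype, and that of the 5 Lce1 members was 0.53, 0.41 and 4.62. Both sums were thus highest in wildtype. Each sum weighs bright genes most, and of the Lce1 members only Lce1c and Lce1h were well above background on the other arrays. Col1a1, the main collagen gene of fibroblasts, had 2429 units on the Pcgf6KO+ Pcgf6_flag array, 12834 in Pcgf6KO and 22260 in wildtype. The markers brightest in wildtype did not share 1 pattern. Fbln2 differed by -3.73 in Pcgf6KO against wildtype and by -0.43 on the Pcgf6KO+ Pcgf6_flag array against Pcgf6KO. In the same order Acta2 gave -2.62 and -1.91, Tagln -0.17 and -0.76, and Fn1 -0.08 and 0.07. Of the 18, 11 were at least 2-fold lower in Pcgf6KO than in wildtype and 9 at least 2-fold lower on the Pcgf6KO+ Pcgf6_flag array than in Pcgf6KO. Over all genes 3.48% and 10.3% were lower by the same rule. In the second of these comparisons only Lce1c and Lce1h among the Lce1 members could be read, with differences of 0.41 and 0.30. The part of feeder RNA in the Lce1 differences was not tested, and fewer cells of a type and less RNA per cell cannot be told apart in such cultures. Of 10 keratinocyte markers on the array, 8 were well above background on the Pcgf6KO+ Pcgf6_flag array, 8 in Pcgf6KO and 9 in wildtype. Their summed signal was 32.1 on the Pcgf6KO+ Pcgf6_flag array, 27.9 in Pcgf6KO and 31.8 in wildtype, most of it from the Trp63 probe. Without Trp63 it was 3.18, 4.70 and 3.61 on the arrays in that order. Pcgf6KO thus went from the lowest to the highest of the arrays, and Pcgf6KO+ Pcgf6_flag from the highest to the lowest.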

How the data were processed

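RNA of 3 mouse embryonic stem cell cultures was read on 1-colour arrays, 1 per genotype label. The cell type label was used, although a source label names muscle. Per the file headers, the deposited spot intensity is background-subtracted on a linear scale, from Agilent Feature Extraction 11.5.1.1, whereas the submitters' processing notes name version 10.7. The deposited value table held the same intensity for 55249 of 55249 single-spot probes on each array (relative tolerance 1e-06), so it is linear, with no scaling, centring or direction, and its column medians were 313, 273 and 243 for Pcgf6KO+ Pcgf6_flag, Pcgf6KO and wildtype.

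Control spots and 192, 158 and 141 outlier spots were left out on these arrays, and 0 were saturated. Spots of a probe were averaged, log2 was taken and the 75th percentile of kept non-control spots subtracted. Each gene took the value of its brightest probe, chosen from the probes well above background on at least 1 array. RefSeq accessions (GRCm38.p6, unversioned) named 26762 of 55681 probes. The array design is on mm9, so gene coordinates were not used beyond gene order, and the promoter sequences are RefSeq's. Protein sequences were not used here. The rule for calls was also run on simulated data, and no result here rests on that run.

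Members, gene lists and alternatives were chosen with earlier results of these data known. Named genes were taken from the members, Pcgf6, the list genes furthest apart per comparison and the brightest, RefSeq neighbours and the 3 genes nearest in pattern to Lce1c (those for Scel are not given). Sbsn, Krt14, Lce3b, Lce3f and Col1a1 fall outside that rule and were named after their values were seen. Genes under the rule that were not described include Krtap4-8, Klk8 and Krt18, each the brightest of its list. These differed by less than 2-fold in every comparison. The number of arrays limits the precision. Alternatives used limma 3.58.1 in R 4.3.3 (normexp, offset 50, on the median spot signal, since the files carry no mean), with Python 3.11.15, numpy 2.4.6, pandas 2.3.3, matplotlib 3.10.9 and Biopython 1.88.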

Additional observations from a re-analysis of the deposited data

How the results depend on the processing

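Under 9 alternatives of background, scaling, source, probes and filter, the median of the Lce1 members stayed below that of the other members. The gap was -5.05 to -3.89 in Pcgf6KO against wildtype and -6.18 to -4.84 for Pcgf6KO+ Pcgf6_flag against wildtype. It was -0.62 to -0.52, under 2-fold, for Pcgf6KO+ Pcgf6_flag against Pcgf6KO. In the processing used above, that comparison had values for Lce1c and Lce1h only, within the range of the other members (-2.68 to 3.90). Lce1c, Lce1f, Lce1g and Lce1h kept their side of 2-fold in both comparisons with wildtype wherever they were tested. With bright genes only, which leaves Krtdap as the 1 member, 0 members were higher and 0 lower in Pcgf6KO against wildtype, 0 and 0 for Pcgf6KO+ Pcgf6_flag against Pcgf6KO, and 1 and 0 for Pcgf6KO+ Pcgf6_flag against wildtype. Krtdap made 2 members higher in each of the first 2 comparisons in the unscaled table, where it differed by 1.09 and 1.05, and at 1.5-fold. Lce1d passed 2-fold, with -1.29, when dim signals were taken as given. Krtap11-1 differed from Pcgf6KO by 1.08 and from wildtype by 1.5 on the Pcgf6KO+ Pcgf6_flag array as a mean over probes. Pcgf6 differed by -0.90 in the unscaled table, where the median of all genes was shifted to 0.11 for Pcgf6KO against wildtype, 0.13 for Pcgf6KO+ Pcgf6_flag against Pcgf6KO and 0.22 for Pcgf6KO+ Pcgf6_flag against wildtype. With no filter on dim probes the median became 0.79 for the other genes of the complex and 0.15 for the muscle markers, against -1.02 for each, in Pcgf6KO+ Pcgf6_flag against Pcgf6KO. Genes higher and lower over all named genes were 1068 and 553 for Pcgf6KO against wildtype, 926 and 1629 for Pcgf6KO+ Pcgf6_flag against Pcgf6KO and 878 and 1009 for Pcgf6KO+ Pcgf6_flag against wildtype. They were 69 and 48 for Pcgf6KO against wildtype, 76 and 152 for Pcgf6KO+ Pcgf6_flag against Pcgf6KO and 56 and 102 for Pcgf6KO+ Pcgf6_flag against wildtype among bright genes only, and 1612 and 862 for Pcgf6KO against wildtype, 1819 and 2263 for Pcgf6KO+ Pcgf6_flag against Pcgf6KO and 1702 and 1545 for Pcgf6KO+ Pcgf6_flag against wildtype with no filter. At 1.5-fold they were 2092 and 1321 for Pcgf6KO against wildtype, 1904 and 2795 for Pcgf6KO+ Pcgf6_flag against Pcgf6KO and 1735 and 2049 for Pcgf6KO+ Pcgf6_flag against wildtype, and at 3-fold 410 and 229 for Pcgf6KO against wildtype, 299 and 807 for Pcgf6KO+ Pcgf6_flag against Pcgf6KO and 296 and 430 for Pcgf6KO+ Pcgf6_flag against wildtype. Normexp gave 675 higher genes in the first and 543 in the last, and without scaling the last had 1333. Apart from the filters, the threshold and the unscaled table, whose construction changes the counts, the cause was not tested. A slide block could not be fitted, since slide 2 holds 1 array. No paired analysis was possible because each group has 1 array.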

Other observations

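Further skin and epithelial gene lists were read in the same way. All 5 simple epithelial keratins were well above background on each array. Krt19 had 11558 units on the Pcgf6KO+ Pcgf6_flag array, 36202 in Pcgf6KO and 8012 in wildtype, with a difference of 2.05 for Pcgf6KO against wildtype, and Krt8 was higher by 1.14. On the Pcgf6KO+ Pcgf6_flag array 3 of the 5 were at least 2-fold lower than in Pcgf6KO, Krt19 by -1.78, Krt20 by -1.62 and Krt7 by -1.44. Of all genes, 10.3% were lower by the same rule. Of 9 genes of the skin kallikreins and their inhibitor Spink5, 7 were well above background on at least 1 array. Klk7, a protease of the shedding outer skin layer, had 1195 units on the Pcgf6KO+ Pcgf6_flag array, 2274 in Pcgf6KO and 438 in wildtype, and 3 of the 7 were at least 2-fold higher in Pcgf6KO than in wildtype and 0 lower. Among all genes 6.73% were higher and 3.48% lower in that comparison. Of 8 barrier lipid enzymes, 1 was at least 2-fold higher in that comparison, Elovl4 with 1.20, and 0 were lower. On the Pcgf6KO+ Pcgf6_flag array against Pcgf6KO 1 of the 7 with a difference was at least 2-fold lower, again Elovl4, with -1.98, and 0 were higher. Scel, highest in Pcgf6KO, had the direction of Krt19 and Klk7 both in Pcgf6KO against wildtype and on the Pcgf6KO+ Pcgf6_flag array against Pcgf6KO. Krtdap, with 0.97 and 0.92 in these comparisons, had it in the first only.

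The genes nearest in pattern over the 3 arrays, by the distance between the pairs of differences from wildtype, were Cd209d, Gzme and Tns1 for Lce1c, at distances of 0.14, 0.35 and 0.37 log2 units among 13658 genes. With 3 arrays many genes share a pattern, and the distances are a description. For Scel no nearest genes are given, because 413 genes were well above background in Pcgf6KO only and their signals on the other arrays could not be ordered.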
